A study of Sus scrofa with 61 samples.

Results

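Purebred Meishan (MS) fetuses were compared at 2 ages near the end of gestation, day 110 (7 fetuses) against day 90 (8 fetuses). These 15 fetuses were all those with the MSMS genotype in the labels, out of 61 fetuses in the series. RNA of the longissimus dorsi, the long muscle of the back, of each fetus was labelled with 1 dye and read on an array of its own, made of oligonucleotide probes for pig genes. The other fetuses were purebred Large White (LW; 8 at day 90 and 9 at day 110), LWMS (MS sow and LW boar; 8 and 8) and MSLW (LW sow and MS boar; 8 and 5). The 2 purebreds were chosen by the study as extreme breeds for mortality at birth, and the question put to the age comparison was which genes change while the muscle matures before birth. All fetuses were males taken by caesarean, and no fetus received a treatment. Sows were inseminated with semen of both breeds, so that MS fetuses had MS sows and litter mates of the LWMS genotype. The sow of each fetus is not given by the labels, and every sow was sampled at a single age, so that differences between sows and differences between ages cannot be fully told apart. Fetuses are numbered in the order of deposit within an age, and the labels tie no fetus of 1 age to a fetus of the other.

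Fetal skeletal muscle is built by the fusion of myoblasts into multinucleated fibres, a process driven by the myogenic regulatory factors and restrained by proteins such as myostatin. Once fibres have formed, developmental isoforms of the contractile proteins give way to adult isoforms, and the fibres gain mitochondria and stores of glycogen. Glucocorticoids and thyroid hormones rise in the fetus before birth in farm animals and are known to act on muscle, liver and lung.

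On the MS arrays, 34346 to 44483 probes were well above background at day 90 (median 42933.5) and 37404 to 42662 at day 110 (median 40742). Fetus 3 of day 90 held the lowest number, and the next lowest array of that age held 41137. The 75th percentile of the background-corrected signal before normalization lay between 736 and 957 at day 90 and between 470 and 645 at day 110. The ages did not overlap in it, and its part in the results was not tested. Correlations between arrays of the same age lay between 0.98 and 0.99, and no 2 arrays held identical values. Each of the 7 slides numbered 1 to 7 held 1 MS fetus of each age, under the same number, and slide 8 held MS fetus 8 of day 90, so that the comparison could also be made within slides. The 10 markers of skeletal muscle fibres were all measured well above background on all 15 MS arrays.

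Values are given as log2 of the background-corrected intensity after quantile normalization over the 61 arrays, and a change is the mean at day 110 minus the mean at day 90, so that 1 unit is a doubling. SE is the standard error of the change. Calls were made with limma on all 42436 probes that were kept, at an adjusted p (Benjamini-Hochberg) under 1%. In MS, 12137 probes (28.6%) were higher at day 110 and 11904 (28.1%) were lower, which makes 56.7% called in either direction. With the further requirement of a change above 1, 4240 probes (9.99%) were higher and 5129 (12.1%) lower. The median change of all kept probes was 0.03 and the median of its size was 0.50. Of the 24041 called probes, 21158 (88%) changed in the same direction on all 7 slides that held both ages. A total of 10486 genes could be named, each read by its brightest probe, and 3116 of them (29.7%) were higher and 3347 (31.9%) lower, or 61.6% in either direction. The values of the 2 ages did not overlap for 2067 genes that were higher (19.7%) and 2453 that were lower (23.4%), or 43.1% in either direction. With so large a share of genes called, a list of genes is described below by how far its counts and its median lie from these. In whole muscle, fewer cells of a type and less RNA per cell cannot be told apart.

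Among the genes that were well above background on all 15 MS arrays with separate ranges at the 2 ages, the largest rise was that of FKBP5, a co-chaperone of the glucocorticoid receptor whose transcription is induced by glucocorticoids. FKBP5 lay from 6.35 to 6.97 (median 6.65) at day 90 and from 11.42 to 12.34 (median 12.03) at day 110. No fetus of day 110 came near the range of day 90, and the change was 5.35 (SE 0.25, adjusted p = 8.24e-26), a 40.9-fold rise. CA9, a carbonic anhydrase that is a known target of hypoxia-inducible factor, lay from 8.41 to 8.67 (median 8.55) at day 90 and from 13.11 to 13.80 (median 13.45) at day 110. Its rise was 4.94 (SE 0.22, adjusted p = 2.83e-27). CA7, another carbonic anhydrase, lay from 4.91 to 5.91 (median 5.59) at day 90 and from 9.76 to 11.02 (median 10.28) at day 110 and rose by 4.82 (SE 0.30). CST6, which encodes the protease inhibitor cystatin E/M, rose by 4.47 (SE 0.44), and AGT, the precursor of angiotensin, rose by 4.34 (SE 0.31). Both genes had separate ranges at the 2 ages. The mitochondrial creatine kinase of muscle, CKMT2, lay from 11.82 to 12.58 (median 12.19) at day 90 and from 15.77 to 16.002 (median 15.94) at day 110. Its 2 ranges were narrow and more than 3 units apart, and it rose by 3.72 (SE 0.16, adjusted p = 6.54e-28). GPX3, a secreted glutathione peroxidase, rose by 3.70 (SE 0.29), from values from 8.93 to 10.40 (median 9.63) at day 90 and from 13.04 to 13.78 (median 13.36) at day 110. ARG2, the mitochondrial arginase, lay from 7.49 to 8.09 (median 7.79) at day 90 and from 10.05 to 12.96 (median 12.27) at day 110, so that the fetuses of day 110 were spread over nearly 3 units but all lay above those of day 90.

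The first 30 bases of the 60-base probes of FKBP5, CA9 and CKMT2, the genes that carry the rises described first, and of PCLAF and TOP2A, the leading falls described next, are given as the array's design file holds them, 5′ to 3′.
FKBP5: tgtagttgagttttagtccttacgggtagg
CA9: gaactggacaccctgtcttgcctgtaacac
CKMT2: gtctgctggatgacagacataaagcaattt
PCLAF: actggcatcctgttgtcaaaagtaaccatg
TOP2A: agtgactctgtaacagattctggaccaacc

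Members of the aldo-keto reductase family 1C, enzymes that reduce steroids and other carbonyl compounds, filled 4 of the 12 places among the largest rises. AKR1C2 lay from 4.54 to 7.49 (median 6.53) at day 90 and from 8.56 to 11.60 (median 10.89) at day 110, and the changes were 4.11 for AKR1C2, 4.08 for AKR1C4, 4.05 for AKR1C1 and 3.75 for AKR1CL1. These genes are close paralogs, so that a probe may read the transcript of another member. Of their 13 kept probes, none shared more than 11 bases in a row with a probe of another of the 4 symbols. Probes on different parts of 1 transcript share no such run either, so that this cannot tell which member a probe reads. All 13 rose, by 3.09 to 4.19, and they need not stand for 4 separate genes. The probe that gave 3.09 was well above background on 3 of 8 arrays of day 90 and 6 of 7 of day 110.

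**Figure D1:**
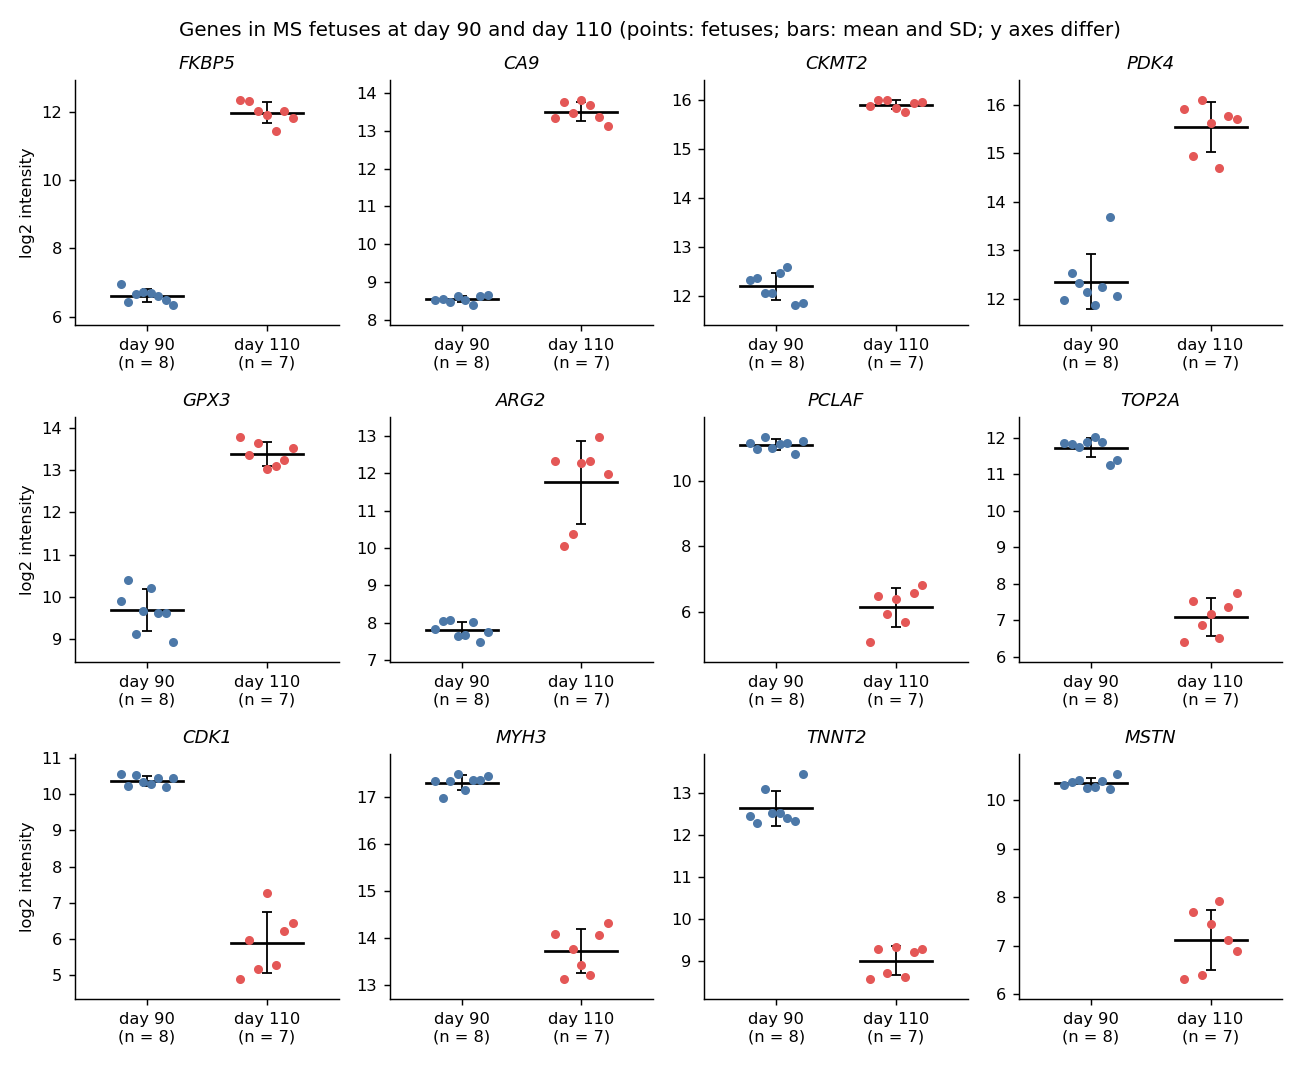
Normalized log2 intensity (y axis) of 12 genes in each MS fetus, with 8 points at day 90 and 7 points at day 110 per panel and a bar at the mean of each age with its SD. FKBP5, CA9, CKMT2, PDK4, GPX3 and ARG2 lie higher at day 110, and PCLAF, TOP2A, CDK1, MYH3, TNNT2 and MSTN lie lower, with no overlap between the ages in any panel.

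Among the same genes, the largest fall was that of PCLAF, a factor that binds the sliding clamp of DNA replication. PCLAF lay from 10.82 to 11.34 (median 11.16) at day 90 and from 5.07 to 6.80 (median 6.39) at day 110, a change of -4.98 (SE 0.28, adjusted p = 5.18e-23). TOP2A, the DNA topoisomerase of dividing cells, lay from 11.26 to 12.02 (median 11.85) at day 90 and from 6.41 to 7.76 (median 7.16) at day 110 and fell by 4.65 (SE 0.25, adjusted p = 1.56e-23). CDK1, the kinase that drives entry into mitosis, lay from 10.20 to 10.55 (median 10.38) at day 90 and from 4.90 to 7.27 (median 5.96) at day 110 and fell by 4.48 (SE 0.28). All 3 genes had separate ranges at the 2 ages. UBE2C, the ubiquitin-conjugating enzyme of the anaphase-promoting complex, fell by 4.56 (SE 0.22), and its day 110 values lay between 6.36 and 7.68. RRM2, the ribonucleotide reductase subunit that makes deoxyribonucleotides in S phase, fell by 4.34 (SE 0.22). ESPL1, the protease separase that cuts the link between sister chromatids, fell by 4.23 (SE 0.22), and CDCA3, FAM64A and TCF19, further genes of dividing cells, fell, with changes of -4.15, -4.44 and -4.60. Of the 12 largest falls, 3 belonged to genes with other roles. NOV, a matricellular protein of the CCN family, fell by 4.43 (SE 0.21), C1QTNF3, a secreted protein of the C1q and tumour necrosis factor family, by 4.48 (SE 0.26), and CPA1, a digestive carboxypeptidase, by 4.17 (SE 0.20).

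Genes of mitosis and the spindle fell almost without exception. Of 51 members tested, 48 were lower at day 110 (94.1%, against 31.9% of all genes) and 2 were higher, with a median change of -3.30 against 0.00 over all genes. The 2 ages did not overlap for 47 members that were lower, against 23.4% of all genes. KIF23, a motor protein of the spindle, fell by 5.31, and CDC20, the activator of the anaphase-promoting complex, fell by 4.64. ASPM, a protein of the spindle poles, was not well above background on any array of day 110 and was at least 11.6-fold lower there, and the spindle motor KIF2C was likewise at least 5.29-fold lower. MKI67, the proliferation marker Ki-67, fell by 1.90 (SE 0.24) and aurora kinase B, AURKB, by 1.00 (SE 0.09). Against the direction of the list, CEP55, a protein of the last step of cell division, rose by 0.92 (SE 0.18, adjusted p = 7.74e-06), and ECT2, which acts in cytokinesis, rose by 0.47 (SE 0.13, adjusted p = 0.00216). KIF11 gave -0.04 by its brightest probe (adjusted p = 0.907), while its other probe gave -3.52. The change in MS was more negative than that in LW for 14 members (27.5%, against 5.2% of all genes) and more positive for 2. KIF23, CDC20 and MKI67 were well above background on all arrays of day 90 and on 3, 2 and 4 of 7 of day 110.

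Of 29 genes of DNA replication and nucleotide synthesis, 24 were lower and 2 higher, with a median of -1.13. UHRF1, which recruits the maintenance DNA methyltransferase, was not well above background in any fetus of day 110 and was at least 15.8-fold lower, and TIMELESS, a part of the replication fork, at least 1.82-fold lower. MCM3 and MCM2, subunits of the replicative helicase, fell, with changes of -4.15 and -3.74. MCM2 lay from 9.26 to 9.73 (median 9.53) at day 90 and from 5.27 to 6.41 (median 5.76) at day 110. PCNA, the sliding clamp, fell by 1.13 (SE 0.11). The 2 rises were those of CHAF1A, a histone chaperone of replicated DNA, by 1.1, and of RFC5, a subunit of the clamp loader, by 0.77. Cyclins and kinases of the G1 phase and genes of cell cycle exit were lower in 9 of 20 cases (45%, against 31.9% of all genes). A further 4 were higher (20%, against 29.7%). E2F8, a repressor of cell cycle genes, was likewise not well above background in any fetus of that age and at least 9.7-fold lower. The D cyclins CCND2 and CCND3 fell, with changes of -2.53 and -1.56, and CDK6, their partner, by 1.74. MYCN, MYC and CCNG1, a cyclin induced by p53, rose by 1.13, 0.69 and 0.64. The inhibitor genes CDKN1A, CDKN1B and CDKN1C did not pass the test, with changes of -0.32, 0.11 and -0.10. Without fetus 6 of day 110, CDKN1A gave -0.44 (adjusted p = 0.00115). MCM3 was well above background on all arrays of day 90 and on 4 of 7 of day 110. TIMELESS was well above background on 7 of 8 arrays of day 90 and 0 of 7 of day 110. CHAF1A was well above background on 3 of 8 arrays of day 90 and 6 of 7 of day 110.

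**Figure D2:**
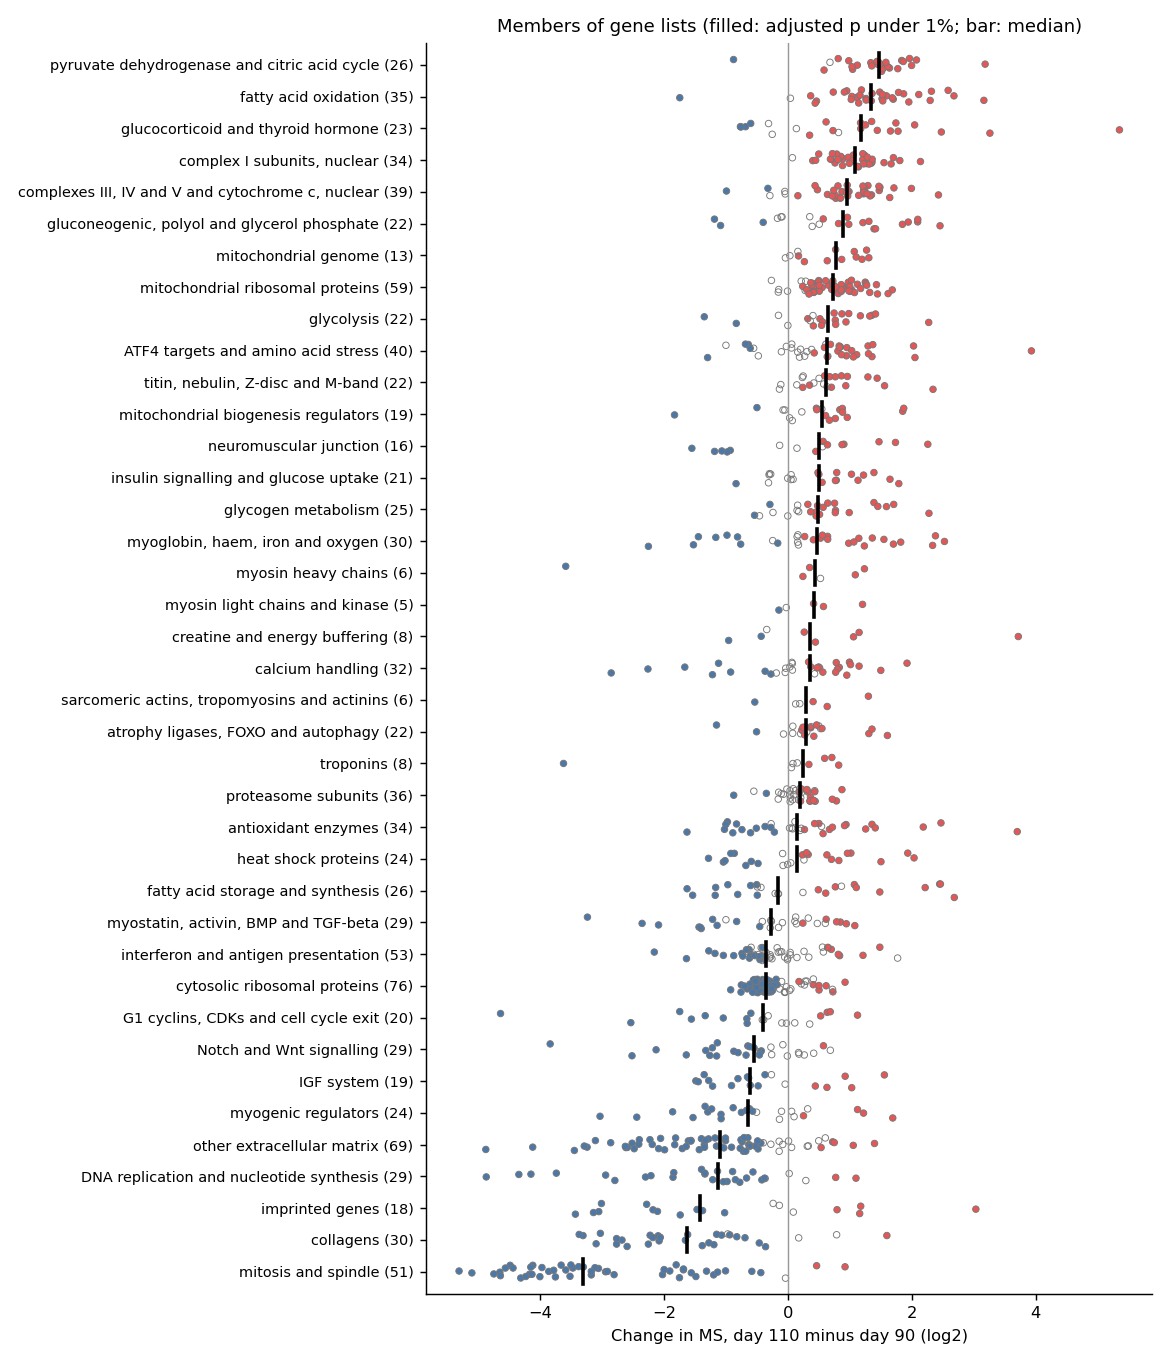
Change from day 90 to day 110 in MS (x axis, log2 scale) of every tested member of 39 gene lists (y axis), with filled points for members past the threshold, open points for the others, a black bar at the list's median and the number tested after the name. Mitosis lies farthest to the left with a median of -3.30, and pyruvate dehydrogenase and the citric acid cycle farthest to the right with a median of 1.48.

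Collagens were the second large group of falls. Of 30 collagen genes tested, 26 were lower and 1 was higher, the median was -1.63, and the 2 ages did not overlap for 22 that were lower. COL1A1, a chain of the main fibrillar collagen, lay from 16.63 to 16.78 (median 16.72) at day 90 and from 14.45 to 14.87 (median 14.60) at day 110 and fell by 2.09 (SE 0.11, adjusted p = 3.79e-24). COL1A2, its partner chain, lay from 16.66 to 16.92 (median 16.86) at day 90 and from 13.81 to 14.41 (median 13.95) at day 110 and fell by 2.76 (SE 0.13). Both chains were lower in every fetus of day 110 than in any fetus of day 90. COL3A1, the collagen of reticular fibres, fell by 2.25 (SE 0.11). In this list COL21A1, COL2A1, COL8A2 and COL11A1 fell, with changes of -3.37, -3.31, -3.09 and -3.03, the largest falls. COL6A2 and COL6A3, chains of collagen VI around the fibres, fell, with changes of -0.69 and -0.82, and COL4A1 of the basement membrane by 1.38. COL10A1, known from hypertrophic cartilage, was the only rise, by 1.6 (SE 0.28, adjusted p = 1.08e-06). COL10A1 was well above background on 2 of 8 arrays of day 90 and 6 of 7 of day 110.

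Other matrix genes also fell more often than they rose, with 52 of 69 lower, 5 higher and a median of -1.09. POSTN, the matricellular protein periostin, lay from 14.82 to 15.33 (median 15.11) at day 90 and from 10.61 to 11.26 (median 10.999) at day 110 and fell by 4.12 (SE 0.20). HAPLN1, which links hyaluronan to proteoglycans, was at least 12.7-fold lower, since no array of day 110 held it well above background. VCAN, the proteoglycan versican, fell by 3.45 (SE 0.11), and TNC, the glycoprotein tenascin C of growing tissue, by 3.24 (SE 0.19). FN1, fibronectin, fell by 2.61 (SE 0.11), and SERPINH1, the chaperone of collagen folding, by 2.23 (SE 0.12). MMP9 and LAMA5, a gelatinase and a laminin chain, rose by 1.06 and 0.75. Markers of fibroblasts fell beside these genes: 6 of 6 were lower, of which COL1A1, DCN and LUM are also counted among the collagens and matrix genes above, and their mean level lay between 13.09 and 13.39 at day 90 and between 10.94 and 11.27 at day 110. THY1, a surface protein of fibroblasts, fell by 3.49, PDGFRA, the receptor that marks them, by 1.12, and FAP, a protease of active fibroblasts, fell by 2.46. TNMD, the only tendon marker with a named probe, fell by 3.93, from values from 10.22 to 11.77 (median 10.97) at day 90 and from 6.68 to 7.63 (median 7.09) at day 110. The part of the number of fibroblasts or tendon cells in the falls of matrix genes was not tested.

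The myosin heavy chains are the motor proteins that set the speed of a fibre, and their isoforms are replaced in order during development. MYH3, the embryonic isoform, lay from 16.96 to 17.47 (median 17.34) at day 90 and from 13.13 to 14.32 (median 13.76) at day 110. Its change of -3.59 (SE 0.22, adjusted p = 2.68e-21), a 12-fold fall, was the largest of the family. Of the adult isoforms, MYH7 of slow fibres lay from 17.65 to 17.82 (median 17.74) at day 90 and from 17.95 to 18.06 (median 17.97) at day 110 and rose by 0.24 (SE 0.05). MYH2 of fast oxidative fibres lay from 17.14 to 17.36 (median 17.29) at day 90 and from 17.38 to 17.97 (median 17.60) at day 110 and rose by 0.35 (SE 0.07). MYH1, the intermediate fast isoform, lay from 15.90 to 16.84 (median 16.44) at day 90 and from 17.25 to 17.91 (median 17.69) at day 110 and rose by 1.24 (SE 0.14). MYH4, the fastest isoform, lay from 14.70 to 15.70 (median 15.18) at day 90 and from 15.71 to 16.59 (median 16.34) at day 110 and rose by 1.09 (SE 0.20). The ages did not overlap for any of these 5 genes. MYH7B, a further slow-type gene, gave 0.53 (adjusted p = 0.0101), just short of the threshold of 1%, which it met when any 1 of 6 arrays was left out (MS day 90 fetuses 2, 5, 6 and 7, MS day 110 fetuses 1 and 4), with adjusted p between 0.00683 and 0.00972 and changes of 0.55 to 0.58. MYH6, MYH8 and MYH13 had no named probe among those kept.

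Within the genes of fast and slow myosins, different probes gave different sizes. For MYH7 the 8 other probes rose by 0.37 to 1.53, all more than the brightest one, and for MYH2 the 5 others rose by 0.43 to 3.36. For MYH1, 5 of the 7 other probes rose, by up to 2.12, 1 gave 0.03 and 1 fell by 1.63. For MYH4 the probes went both ways: 3 of 9 rose, 5 fell and 1 did not pass the test. The 2 that fell on bright and narrow values changed by -2.21 (SE 0.21) and -1.87 (SE 0.13). The 3 that fell on wide values overlap in sequence and ranged from 5.44 to 12.1 over the 15 fetuses, and the 2 dim probes that rose, by 1.35 and 1.23, have the same 60 bases. Myosin genes are close paralogs, so that a probe designed to 1 symbol may read another transcript, and which transcripts these probes read was not tested. The first 30 bases of the probes that differ most are given to show that they are distinct, except for MYH3, where the last 30 bases are given with the polyadenylation hexamer AATAAA in capitals. The hexamer stands in 4876 of the 42436 kept probes (11.5%) as printed and in 1903 (4.48%) on the other strand.
MYH3, change -3.59: tgactgcttttcacatgcAATAAAccttgt
MYH7, change 0.24: agatttgccacatcttgatctgccccatct
MYH2, brightest probe, change 0.35: aagctgaggaggctgaggaacaatccaata
MYH2, change 3.36: atgaacaagcacttgccattcagctgcaaa
MYH1, change 1.24: aggatctggtggataaactgcaagcaaagg
MYH4, brightest probe, change 1.09: gggaggttcacacaaaagtcataagtgaag
MYH4, change -2.21: tctcaggctgcaggacttggtggacaaaca
MYH4, change -1.87: atgaggaaatcgatcagatgaagaggaacc

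**Figure D3:**
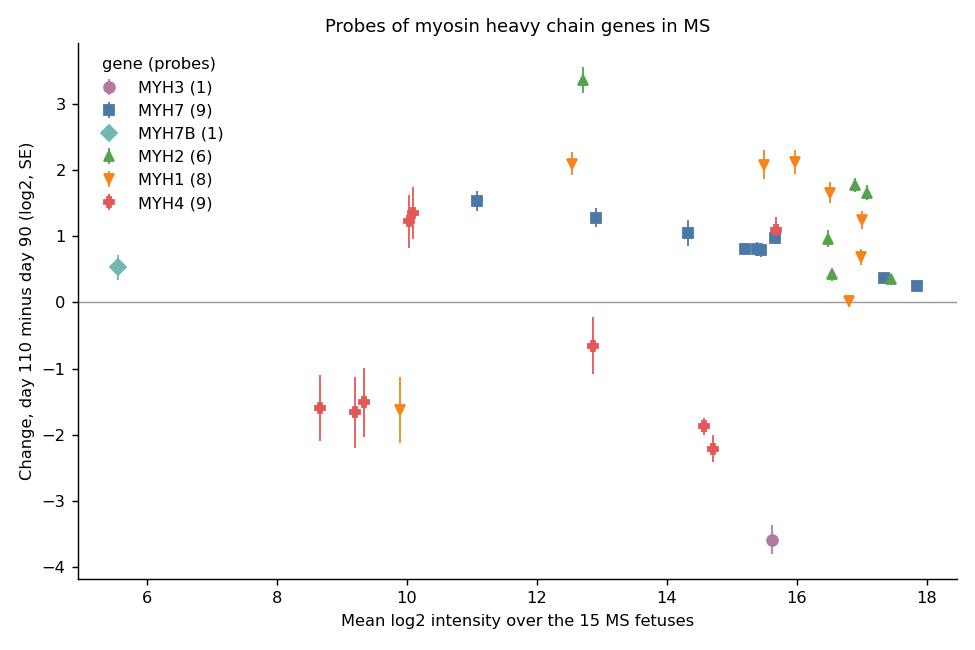
Change from day 90 to day 110 in MS (y axis, log2 scale, bars are SE) of each of the 34 kept probes of 6 myosin heavy chain genes against the mean normalized log2 intensity of the probe over the 15 MS fetuses (x axis). The single MYH3 probe lies at -3.59, all MYH2 and MYH7 probes lie above 0, and the MYH4 probes lie between -2.21 and 1.35.

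Among the troponins, TNNT2, the cardiac and fetal form of troponin T, lay from 12.28 to 13.44 (median 12.48) at day 90 and from 8.57 to 9.34 (median 9.22) at day 110 and fell by 3.62 (SE 0.19, adjusted p = 9.48e-24). TNNT3 and TNNT1, the fast and slow forms of skeletal muscle, rose by 0.71 and 0.82 by their brightest probes. A further TNNT3 probe fell by 2.36, and the remaining ones gave 0.06 to 0.44. TNNI2, fast troponin I, and TNNI3, the cardiac form, rose by 0.34 and 0.60, while TNNI1, TNNC1 and TNNC2 gave 0.06, 0.15 and 0.08 and did not pass the test. Cardiac actin, ACTC1, which is also the form of fetal skeletal muscle, lay from 18.08 to 18.22 (median 18.11) at day 90 and from 17.26 to 17.82 (median 17.62) at day 110 and fell by 0.53 (SE 0.07), but its change turned to 0.17 when arrays were scaled to the 75th percentile, and its other probes ranged from -0.62 to 0.83. Skeletal actin, ACTA1, gave 0.13 (adjusted p = 0.0159), and 0.15 (adjusted p = 0.00425) without fetus 3 of day 110. TPM3, a tropomyosin, rose by 1.3 by its brightest probe and ranged from -1.51 to 1.81 by the others, and TPM2 rose by 0.64. Of the myosin light chains, MYL2, the slow regulatory chain, rose by 0.42, MYL6B by 0.58 and the kinase MYLK2 by 1.21. MYLPF, the fast regulatory chain, fell by 0.14 but gave 0.57 after scaling to the 75th percentile, and its fall did not pass the test without fetus 1 or without fetus 4 of day 110 (-0.14 and -0.13, adjusted p = 0.0111 and 0.0135). This scaling raised the changes of the 756 probes at or above 16 by a median of 0.73 and those of the 16404 probes between 8 and 12 by 0.00, while the median of all probes moved from 0.03 to 0.13. With it 7 of 8 troponin genes and 5 of 5 genes of myosin light chains and their kinase were higher, in place of 4 and 3.

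Proteins of the Z-disc, the M-band and the giant filaments rose where they changed, with 13 of 22 higher and none lower (median 0.61), or 21 of 22 higher (median 1.03) after scaling to the 75th percentile. MYBPC2, the fast form of myosin-binding protein C, lay from 7.98 to 9.14 (median 8.47) at day 90 and from 10.32 to 11.58 (median 10.95) at day 110 and rose by 2.34 (SE 0.36). ANKRD2, a stretch-responsive protein of the I-band, rose by 1.56, SYNPO2, an actin-binding protein of the Z-disc, by 1.44, and MYOZ2 and MYOZ1, which bind calcineurin at the Z-disc, by 1.29 and 0.94. MYOM2, a protein of the M-band of fast fibres, rose by 0.96. TTN, the giant spring titin, and NEB, nebulin of the thin filament, rose by 0.70 and 0.87. MYBPC1, the slow form of the binding protein, gave -0.14 (adjusted p = 0.0322), while its 2 other probes gave 0.37 (adjusted p = 0.193) and 0.43 (adjusted p = 0.00515).

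Regulators of myogenesis, both promoting and restraining ones, fell more often than they rose, with 14 of 24 lower, 4 higher and a median of -0.64. Among the falls were ID2, ID3 and ID4, inhibitors of myogenic factors, with changes of -1.23, -0.75 and -0.57. TMEM8C, which encodes the fusion protein myomaker, lay from 9.03 to 10.05 (median 9.57) at day 90 and from 5.54 to 7.74 (median 6.64) at day 110 and fell by 3.03 (SE 0.22). HES6, a promoter of myogenic differentiation, fell by 2.44 (SE 0.15), and MEGF10, a receptor of satellite cells, by 1.86 (SE 0.14). MYOD1 and MYOG, the determination and differentiation factors, fell, with changes of -1.29 and -1.08, and MYF6 by 0.62 (-0.22 with an adjusted p of 0.16 after scaling to the 75th percentile), while MYF5 gave 0.10 (adjusted p = 0.787). PAX7, the factor of satellite cells, lay from 7.88 to 8.48 (median 8.09) at day 90 and from 8.93 to 11.04 (median 9.62) at day 110 and rose by 1.69 (SE 0.20), and PAX3, its relative, rose by 1.22 (SE 0.13). PAX7 and PAX3 were thus higher at day 110 while the factors of differentiation were lower. MEF2D rose by 1.13 and MEF2C fell by 0.88, both being transcription factors of muscle genes. MYF5 was well above background on 7 of 8 arrays of day 90 and 4 of 7 of day 110.

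Of 16 genes of the neuromuscular junction and the excitable membrane, 8 were higher (50%, against 29.7% of all genes). A further 5 were lower (31.2%, a share close to the 31.9% of all genes). CHRNG, the fetal subunit of the acetylcholine receptor, lay from 6.45 to 7.26 (median 6.78) at day 90 and from 4.86 to 5.59 (median 5.24) at day 110 and fell by 1.55 (SE 0.21). CHRNE, the adult subunit that replaces it, lay from 5.79 to 6.29 (median 6.05) at day 90 and from 7.23 to 8.41 (median 7.39) at day 110 and rose by 1.47 (SE 0.18). The 2 subunits thus went opposite ways, each without overlap between the ages. Of the beta subunits of the sodium pump, ATP1B1 rose by 1.74 and ATP1B2 fell by 1.06. NCAM1, an adhesion molecule of young fibres, fell by 1.18. In calcium handling, 16 of 32 genes were higher (50%) and 8 lower (25%). After scaling to the 75th percentile 23 were higher and 7 lower, and the median was 0.66 in place of 0.35. ATP2A3 and CACNA1S, a calcium pump and the voltage sensor of excitation, rose by 1.93 and 1.5, and ATP2A1, the pump of fast fibres, by 0.83. RYR3, a calcium channel of developing muscle, fell by 2.85 (SE 0.17) by its brightest probe, while its other probe gave 1.1. RCAN1, an inhibitor of calcineurin, fell by 2.26, S100A1, a calcium sensor, by 1.66, and CALR, the calcium-binding chaperone calreticulin, by 1.22. RYR3 and RCAN1 were well above background on all arrays of day 90 and on 5 and 3 of 7 of day 110.

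Genes of pyruvate dehydrogenase, its kinases and the citric acid cycle, taken as 1 list, rose nearly without exception. Of these, 24 of 26 were higher and 1 lower, with a median of 1.48 against 0.00 over all genes. The 2 ages did not overlap for 24 genes that were higher, against 19.7% of all genes. PDK4, the kinase that turns off pyruvate dehydrogenase during fasting, lay from 11.88 to 13.68 (median 12.19) at day 90 and from 14.69 to 16.10 (median 15.71) at day 110 and rose by 3.19 (SE 0.37, adjusted p = 6.71e-11). PDK2, another such kinase, rose by 2.08 (SE 0.15), and PDHA1, the catalytic subunit of the enzyme itself, by 2.0 (SE 0.18). IDH3A and IDH2, isocitrate dehydrogenases, rose by 1.97 and 1.86, MPC2, a chain of the mitochondrial pyruvate carrier, by 1.84, and CS, citrate synthase, by 1.64. PDK3 was the single fall, by 0.88.

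Of the 34 nuclear genes of complex I, 33 were higher (97.1%, against 29.7% of all genes) and none lower, and the 2 ages did not overlap for 32. Their median change was 1.09. NDUFV1, which carries the site that binds NADH, lay from 9.27 to 9.85 (median 9.45) at day 90 and from 11.35 to 12.03 (median 11.59) at day 110 and rose by 2.14 (SE 0.13), and NDUFA10, NDUFS1 and NDUFS8 rose by 1.81, 1.71 and 1.67. NDUFS5 gave 0.07 (adjusted p = 0.316). In complexes III, IV and V, 34 of 39 genes were higher and 2 lower, with a median of 0.96 that was 1.63 after the same scaling to the 75th percentile. UQCRFS1, the iron-sulfur subunit of complex III, rose by 2.43 (SE 0.15), COX7A1, the muscle form of a subunit of cytochrome oxidase, by 2.0 (SE 0.11), and CYC1, cytochrome c1, by 1.71 (SE 0.09). COX6A1, whose muscle counterpart COX6A2 had no named probe, fell by 0.99 (SE 0.08). Of the 13 protein genes of the mitochondrial genome, 10 were higher and none lower, the largest changes being those of ND6 (1.31), ND5 (1.27), ATP8 (1.20), ND4L (1.1) and ND2 (1.07). ND6 lies on the other strand from the rest, and the strand of a probe was not checked. COX1 and COX2 gave 0.03 and -0.04, on values near the top of the scale, and 0.82 and 0.70 after scaling to the 75th percentile. Of 59 genes of mitochondrial ribosomal proteins, 50 were higher and none lower, with a median of 0.72.

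Genes of fatty acid oxidation were also mostly higher, with 33 of 35 genes higher, 1 lower and a median of 1.35. ECI1, an isomerase of unsaturated fatty acids, lay from 9.78 to 10.29 (median 9.88) at day 90 and from 12.88 to 13.63 (median 13.03) at day 110 and rose by 3.17 (SE 0.16). ACADVL, the dehydrogenase of very long chains, rose by 2.59 (SE 0.13), and CPT1B and CPT2, the carnitine transferases of the outer and inner membrane, by 2.32 (SE 0.13) and 2.11 (SE 0.15). ACACB, the carboxylase that makes malonyl-CoA near mitochondria, and MLYCD, which removes it, rose by 2.68 and 2.30. UCP2, an uncoupling protein, was the single fall, by 1.74 (SE 0.19). Genes of fatty acid storage and synthesis were split, with 10 of 26 higher (38.5%) and 9 lower (34.6%). Among all genes these shares were 29.7% and 31.9%, so that the list lay close to them. LPIN1, PNPLA2, PLIN5 and LPL, which act on stored or circulating triglycerides, rose by 2.69, 2.46, 2.45 and 2.22, while CEBPA, LPIN2 and ELOVL6 fell, with changes of -1.63, -1.54 and -1.17. Among regulators of mitochondrial genes, 11 of 19 were higher and 2 lower. ESRRA, an orphan receptor of such genes, rose by 1.86 (SE 0.09), MFN2, which fuses mitochondria, by 1.87 (SE 0.17), and PPARGC1A, the coactivator PGC-1 alpha, by 0.84 (SE 0.10), and RXRG fell by 1.83 (SE 0.22).

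Of 22 genes of glycolysis, 16 were higher and 2 lower, with a median of 0.65 that was 1.15 after scaling to the 75th percentile. PFKFB1, which makes the activator of phosphofructokinase, lay from 8.22 to 8.83 (median 8.53) at day 90 and from 10.32 to 11.36 (median 10.89) at day 110 and rose by 2.28 (SE 0.18). SLC16A1, a lactate transporter, rose by 1.42 (SE 0.19), ALDOA and ALDOC, aldolases, by 1.36 and 1.32, PFKM, muscle phosphofructokinase, by 1.17, and TPI1, triosephosphate isomerase, by 0.98. HK1 and ENO2, forms common outside adult muscle, fell, with changes of -1.35 and -0.83, while ENO3, the enolase of muscle, rose by 0.56. Genes of glycogen metabolism followed, with 17 of 25 higher and 2 lower. PYGM, the glycogen phosphorylase of muscle, lay from 12.33 to 12.89 (median 12.48) at day 90 and from 14.52 to 15.31 (median 14.90) at day 110 and rose by 2.28 (SE 0.14). PHKB and PHKA1, subunits of its kinase, rose by 1.71 and 1.59, EPM2A, the phosphatase laforin, by 1.45, and GYS1 and GYG1, the synthase and its primer, by 0.77 and 0.99. Of 22 genes of gluconeogenesis and the shuttles of glycerol phosphate and malate, 13 were higher and 3 lower. GOT1, GOT2 and MDH1 of the malate and aspartate shuttle rose by 2.46, 2.10 and 2.10. PCK2, the mitochondrial phosphoenolpyruvate carboxykinase, rose by 1.94, while PCK1, its cytosolic counterpart, fell by 1.18, and FBP2, the muscle fructose bisphosphatase, rose by 1.39 while the liver form FBP1 fell by 1.09.

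Of 23 genes that belong to or respond to glucocorticoid and thyroid hormone, 15 were higher and 4 lower, with a median of 1.17. Beside FKBP5, ZBTB16, a transcription factor induced by glucocorticoids, lay from 8.69 to 9.79 (median 9.40) at day 90 and from 11.80 to 13.14 (median 12.49) at day 110 and rose by 3.26 (SE 0.23). CEBPD, KLF15 and KLF9, further targets, rose by 2.48, 2.05 and 1.78, and GLUL, glutamine synthetase, by 1.75. HSD11B1, which makes active cortisol, rose by 1.35 (SE 0.18), and HSD11B2, which inactivates it, fell by 0.76 (SE 0.16). The receptor genes NR3C1 and NR3C2, of glucocorticoids and mineralocorticoids, fell, with changes of -0.68 and -0.76. THRB, a thyroid hormone receptor, rose by 1.66 (SE 0.23), and THRA fell by 0.60 (SE 0.10), a value that became 0.06 when scaled to the 75th percentile. DIO3, which inactivates thyroid hormone, rose by 1.18 (SE 0.27). No hormone was measured on these arrays. CEBPD was well above background on 4 of 8 arrays of day 90 and on all of day 110. DIO3 was well above background on 2 of 8 arrays of day 90 and 6 of 7 of day 110.

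Of 21 genes of insulin signalling and glucose uptake, 12 were higher and 1 lower. GRB10, an adaptor that dampens insulin signals, rose by 1.79 (SE 0.14), and the glucose transporters SLC2A12, SLC2A1 and SLC2A4, the last the insulin-regulated form, by 1.65, 1.39 and 1.22. TBC1D1, which holds back the transporter, fell by 0.84. In the IGF system 5 of 19 genes were higher and 12 lower. INS-IGF2, a readthrough of the fetal growth factor locus, fell by 1.48 (SE 0.09) by its brightest probe, and a dim probe of the same name gave 1.08. IGF2, the fetal growth factor, fell by 0.48 (SE 0.06) by its brightest probe, where scaling to the 75th percentile gave 0.27, and its 8 other probes fell, with changes of -1.46 to -1.17. At day 90 the mean of the bright INS-IGF2 probe was 17.39, beside 17.50 for the brightest IGF2 probe. Whether the bright INS-IGF2 probe reads IGF2 transcripts was not tested. IGFBP7, IGFALS, IGFBP6 and IGFBP2, which bind growth factors of the family, fell, with changes of -1.45, -1.35, -1.28 and -1.21. STC1, STC2 and PAPPA, genes that control the release of the factors from their binding proteins, rose by 1.56, 1.03 and 0.93. IGFALS was well above background on 7 of 8 arrays of day 90 and 3 of 7 of day 110.

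Imprinted genes, many of which act on fetal growth, fell in 11 of 18 cases and rose in 4, with a median of -1.42. PEG10, a gene derived from a retroelement, lay from 15.73 to 16.36 (median 16.14) at day 90 and from 11.77 to 13.70 (median 12.71) at day 110 and fell by 3.43 (SE 0.22). NNAT, DLK1 and MEST, all expressed from the paternal copy, fell, with changes of -3.14, -3.05 and -3.01, and MEG3, the maternally expressed RNA next to DLK1, fell by 2.28. H19, the maternally expressed RNA next to IGF2, gave 0.09 (adjusted p = 0.348). PON3, a paraoxonase, rose by 3.04 (SE 0.77), and DIO3 and ASB4 rose by 1.18 and 1.16. Among myostatin, activin, BMP and TGF-beta genes, 6 of 29 were higher (20.7%, against 29.7% of all genes). A further 10 were lower (34.5%, against 31.9%), a share close to that of all genes. MSTN, myostatin, the inhibitor of muscle growth, lay from 10.24 to 10.53 (median 10.35) at day 90 and from 6.31 to 7.93 (median 7.13) at day 110 and fell by 3.23 (SE 0.18, adjusted p = 2.91e-23). TGFB3 and TGFB1 fell, with changes of -2.35 and -1.43, and FSTL1 and CHRD fell, with changes of -2.09 and -1.41. ACVR1B and ACVR2B, receptors of this family, rose by 1.08 and 0.79. Of 29 Notch and Wnt genes, 18 were lower and 1 higher, led by SFRP4 (-3.84), WNT2B (-2.52) and SFRP2 (-2.13), the first and last being secreted inhibitors of Wnt. NNAT was well above background on all arrays of day 90 and on 4 of 7 of day 110. PON3 was well above background on 3 of 8 arrays of day 90 and on all of day 110.

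Among targets of ATF4 and genes of amino acid stress, 21 of 40 were higher and 4 lower. Beside ARG2, CEBPB, a transcription factor, rose by 2.05 (SE 0.29), and SLC3A2, a chain of amino acid transporters, by 2.03 (SE 0.22). CTH, which makes cysteine, EIF4EBP1, an inhibitor of translation, and CARS, the tRNA synthetase of cysteine, rose by 1.37, 1.36 and 1.3. SLC1A5, a glutamine transporter, fell by 1.29. Antioxidant enzymes were split, with 14 of 34 higher (41.2%, against 29.7% of all genes) and 12 lower (35.3%, against 31.9%). After scaling to the 75th percentile 20 were higher and 10 lower. SOD2 of mitochondria rose by 2.47 (SE 0.14), and TXNRD2 and PRDX3 of the same compartment by 1.36 and 1.26. GSTM3 and SRXN1 fell, with changes of -1.63 and -1.02. Of 24 heat shock genes, 11 were higher (45.8%), led by DNAJB5 (2.04), HSPB7 (1.94) and the mitochondrial HSPA9 (1.5). A further 8 were lower (33.3%, close to the 31.9% of all genes), led by HSP90B1 (-1.28) and HSPA5 (-1.04) of the endoplasmic reticulum. After the same scaling 13 heat shock genes were higher and 5 lower. CEBPB and DNAJB5 were well above background on 5 and 5 of 8 arrays of day 90 and on all of day 110.

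Of 30 genes of oxygen, iron and haem, 17 were higher (56.7%, against 29.7% of all genes) and 8 lower (26.7%, against 31.9%). MB, myoglobin, lay from 8.25 to 9.64 (median 8.97) at day 90 and from 10.53 to 11.32 (median 10.69) at day 110 and rose by 1.82 (SE 0.18). EGLN3, an oxygen-sensing hydroxylase, and STEAP3 and HMOX2, of iron reduction and haem breakdown, rose by 2.34, 2.38 and 2.53, and HMOX1, the inducible haem oxygenase, fell by 2.25 (SE 0.17). ANGPT2 and KDR, an angiopoietin and a receptor of vascular growth, fell, with changes of -1.52 and -1.44. Of 22 genes of protein breakdown in atrophy and autophagy, 10 were higher and 2 lower, with FBXO32, the ligase atrogin-1, rising by 1.61 (SE 0.38) and FOXO3 by 1.31 (SE 0.12). Proteasome subunits were higher in 15 of 36 cases and lower in 2, and after scaling to the 75th percentile 28 of 36 of them and 16 of the 22 genes of protein breakdown were higher. Interferon and antigen presentation genes were lower in 18 of 53 cases (34%, against 31.9% of all genes) and higher in 6, with GBP1 (-2.16) and CXCL10 (-1.64) the largest falls. The mean level of this list was 10.27 in fetus 2 of day 90, from 9.19 to 9.69 in the other fetuses of that age and from 9.05 to 9.63 at day 110, and without fetus 2 the counts were 18 lower and 7 higher, the median moved from -0.35 to -0.17, and CXCL10 gave -1.36 (adjusted p = 0.00145). Of 76 cytosolic ribosomal protein genes, 55 were lower and 7 higher (median -0.36), but 2 were lower and 47 higher (median 0.34) when arrays were scaled to the 75th percentile, so that the direction of this group differed between the 2 normalizations. GBP1 and CXCL10 were well above background on all arrays of day 90 and on 6 and 4 of 7 of day 110.

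Markers of other cell types were counted beside these results, to be read against 29.7% of all genes higher and 31.9% lower. Of 8 endothelial markers 4 were lower, among them CLDN5 (-1.78), and 1, VWF, was higher (1.14). Of 7 erythroid markers 3 were lower and 1 higher, with the adult globin HBB at -0.07 (adjusted p = 0.683) and the embryonic globin HBE1 falling by 1.11. Of 7 leukocyte markers 2 were lower, AIF1 by 1.39 and CSF1R by 0.79. Adipocyte markers were split, 2 and 2 of 7 (28.6% each way, close to all genes), with PLIN1, the perilipin of fat cells, falling by 1.16. Of 6 Schwann cell markers 1 was higher, and of 6 markers of smooth muscle and pericytes 2 were higher and 2 lower (33.3% each way). Muscle fibre markers were higher in 5 of 10 cases and lower in none, and in 10 of 10 after scaling to the 75th percentile. HBE1 was well above background on 7 of 8 arrays of day 90 and 3 of 7 of day 110.

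Several probes stood for 4972 genes, and in 2915 of the 3261 called ones (89.4%) the main probe had the sign of the median of the others. Among the genes named above, at least 1 other probe gave the opposite sign for RFC5 (-0.93 to -0.88), COL6A2 (-0.50 to 0.42), ATP2A1 (-1.42 to 5.26), LPIN1 (-0.29 to 2.77), CEBPA (-0.58 to 0.83), FBP1 (-1.06 to 0.81), THRA (-0.38 to 0.24), TBC1D1 (-0.11 to 0.45), IGFBP7 (-1.55 to 0.04), NNAT (-3.36 to 0.48), COX6A1 (-1.01 to 0.08), MYLPF (-0.22 to 0.43) and HSPA9 (-0.03 to 1.52). Of the genes that did not pass, the same was so for ACTA1 (-0.11 to 1.17), CDKN1A (-0.32 to 0.59), COX1 (-0.15 to 1.05), COX2 (0.25 to 1.40) and TNNC2 (-0.13 to 0.52). The ranges in brackets are the changes of the other probes.

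A number of genes were well above background at a single age. On all 7 arrays of day 110 and on none of day 90 stood 6 named genes, and 24 stood on all 8 of day 90 and on none of day 110, so that their changes are bounds. PPP1R14C, an inhibitor of protein phosphatase 1, lay from 1.73 to 2.43 (median 1.97) at day 90 and from 7.32 to 9.15 (median 7.72) at day 110, at least 17.7-fold higher at day 110. FGL1, a secreted protein best known from liver, was at least 7.32-fold higher and PPM1J, a protein phosphatase, at least 7.27-fold higher. TRIM17 and PARP3 had bounds of 3.8-fold and 2.99-fold. In the other direction, PRND, which encodes the prion-like protein doppel, was at least 29.8-fold lower at day 110 and ENOSF1 at least 14.5-fold lower. SKA1, a protein of the kinetochore, was at least 12.3-fold lower, and UHRF1 and HAPLN1, given above, completed the 5 largest bounds. In all of these the brighter group's mean was set against a mean over the arrays of the other group. Each such array counted at its lowest signal well above background, or at the gene's own value where that was higher. Among the genes named above, MYCN, CDKN1C, LAMA5, MYH7B, MEF2D, NDUFA10, UQCRFS1, MLYCD, MFN2, THRB, PAPPA, ACVR1B and CARS were well above background on 7 of 8 arrays of day 90 and on all 7 of day 110.

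The change in MS was then tested against the change in LW, which shares no array with it. The 2 changes differed for 2524 probes (5.95%), with 1085 (2.56%) more positive and 1439 (3.39%) more negative in MS, so that 43% of the differing probes were more positive, a share that was 63.7% after scaling to the 75th percentile. By genes, 897 (8.55%) differed, 352 (3.36%) more positive and 545 (5.2%) more negative in MS. The change of ARG2 was 3.93 in MS and -1.44 in LW, a difference of 5.37 (SE 0.57, adjusted p = 2.85e-09). That of PCK2 was 1.94 in MS and -0.80 in LW, a difference of 2.74 (SE 0.40, adjusted p = 2.7e-06), and that of ASNS, asparagine synthetase, 0.85 and -1.73, a difference of 2.58 (SE 0.38, adjusted p = 3.62e-06). These 3 genes rose in MS and had changes below 0 in LW. PHGDH, of serine synthesis, showed the same signs, 0.65 in MS (adjusted p = 0.0389) and -1.93 in LW, and differed by 2.57 (SE 0.38, adjusted p = 5.21e-06). The rise of ASNS did not pass the threshold when any 1 of 7 arrays was left out (MS day 90 fetuses 4, 5 and 7, MS day 110 fetuses 1, 4, 5 and 6), with values of 0.76 to 0.83 and adjusted p between 0.0103 and 0.0184. KRT19, a keratin, gave -0.65 in MS and -3.42 in LW, a difference of 2.77. PPP1R14C and PPM1J differed by 4.01 and 3.86, with MS values at day 90 that were not well above background. UNC13A also met the threshold, with a difference of 3.11, but was well above background on 1 of 8 and 0 of 7 MS arrays. KRT19 was well above background on 7 of 8 arrays of day 90 and 5 of 7 of day 110.

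In the other direction, GSTM1, a glutathione transferase, gave -3.40 in MS and 0.22 in LW, a difference of -3.62 (SE 0.47, adjusted p = 3.08e-07). ZP2, named for a protein of the egg coat, gave -4.33 and -0.94, a difference of -3.40 (SE 0.42, adjusted p = 8.2e-08). NR4A3, an orphan receptor of early response, gave -1.76 in MS and 1.35 in LW, and PEG10 -3.43 and -1.08, with differences of -3.11 and -2.35. AWN, DMBT1, GPR85 and RNF182 completed the 8, with differences of -3.35, -2.71, -2.52 and -2.48. AWN and DMBT1 were well above background on 2 and 1 of 7 MS arrays of day 110. No MS array of that age held ZP2, GPR85 or RNF182 well above background, so that their differences are fitted on background values. The difference of AWN did not pass the threshold when any 1 of 7 arrays was left out (MS day 90 fetuses 1, 3 and 5, MS day 110 fetuses 2, 3, 5 and 6), with values of -3.36 to -3.10 and adjusted p between 0.0101 and 0.0145. For NR4A3 the change in MS alone had an adjusted p of 0.00541, and it did not pass when any 1 of 7 arrays was left out (MS day 90 fetuses 1, 3, 4 and 7, MS day 110 fetuses 1, 2 and 5), with values of -1.69 to -1.58 and adjusted p between 0.0106 and 0.0168, and its difference from LW gave -2.94 (adjusted p = 0.0104) without fetus 5 of day 110. For MYH3 the change was -3.59 in MS and -1.31 in LW, a difference of -2.27 (SE 0.30, adjusted p = 4.34e-07), so that the embryonic myosin fell further in MS. By list, 27 of 69 matrix genes other than collagens were more negative in MS (39.1%, against 5.2% of all genes), beside 9 of 30 collagens and 4 of 6 fibroblast markers. More positive in MS were 8 of 40 targets of ATF4 (20%), 6 of 13 genes of the mitochondrial genome (46.2%), 6 of 22 gluconeogenic genes (27.3%) and 5 of 34 complex I genes (14.7%), against 3.36% of all genes. For complex III to V, glycolysis and fatty acid oxidation 1 of 39, 2 of 22 and 4 of 35 were more positive and none more negative. GSTM1 was well above background on all arrays of day 90 and on 4 of 7 of day 110.

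**Figure D4:**
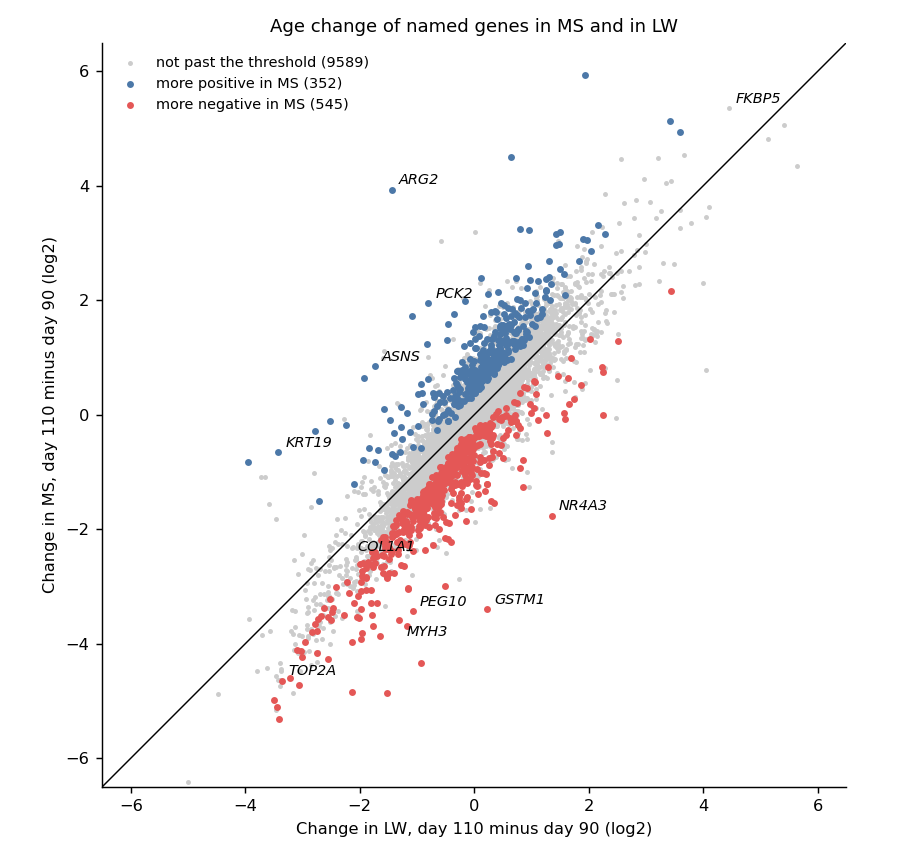
Change from day 90 to day 110 in MS (y axis) against the change in LW (x axis), both on the log2 scale, for all 10486 named genes (grey), those whose changes differed at an adjusted p under 1% (blue where more positive and red where more negative in MS) and the diagonal of equal change. The 897 differing genes lie off the diagonal, with ARG2 and PCK2 up in MS and down in LW, and MYH3 below the diagonal.

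Against the mean change of the 2 crosses, the change in MS differed for 25 probes (0.0589%), being more positive for 6 (0.0141%) and more negative for 19 (0.0448%), and for 6 named genes (0.0572%). DHRS4, a short-chain dehydrogenase, was the only one more positive in MS, by 0.58 (SE 0.11, adjusted p = 0.00914). GSTM1 was more negative in MS by -2.72 (SE 0.43, adjusted p = 0.000285), and COL16A1, COL1A1, INS-IGF2 and SPARC, 3 of them genes of the matrix and all 4 lower at day 110 in MS, by -0.74 (SE 0.14, adjusted p = 0.00435), -0.74 (SE 0.14, adjusted p = 0.0032), -0.65 (SE 0.11, adjusted p = 0.000882) and -0.59 (SE 0.09, adjusted p = 0.000285). SPARC binds collagen in the matrix and fell by 1.39 in MS. The INS-IGF2 probe may read IGF2 transcripts, which was not tested. The difference of DHRS4 did not pass the threshold when any 1 of 12 arrays was left out (MS day 90 fetuses 1, 3, 4, 6, 7 and 8, MS day 110 fetuses 1, 2, 5 and 6, MSLW day 110 fetuses 3 and 5), with values of 0.53 to 0.59 and adjusted p between 0.0108 and 0.0238. That of COL16A1 did not pass without fetus 3 of day 90 or without fetus 4 of day 110 (-0.73 and -0.71, adjusted p = 0.01004 and 0.0115). After scaling to the 75th percentile COL1A1, INS-IGF2 and SPARC gave -0.57, -0.47 and -0.40 (adjusted p = 0.0165, 0.0386 and 0.0373), and GSTM1 gave -1.40 (adjusted p = 0.0305) with the normexp background correction. With slide as a block the number of differing probes was 58.

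The MS fetuses of an age varied little for most genes. Over the 32592 probes that were well above background on all 15 arrays, the median SD was 0.18 at day 90 and 0.20 at day 110, and 57.6% had the larger SD at day 110. An SD above 1 was held by 133 probes at day 90 and by 126 at day 110. Several of the most variable genes at day 110 lay at 2 separate levels. CTXN3, cortexin 3, lay between 5.30 and 6.12 in 3 fetuses of day 110 and between 11.1 and 13.1 in 4 (fetuses 2, 4, 5 and 6), while at day 90 it lay between 4.89 and 9.96. SLPI, a secreted protease inhibitor, lay between 8.27 and 8.83 in 3 fetuses and between 11.5 and 12.2 in 4 (fetuses 1, 2, 3 and 4). LRRC26, a channel subunit, lay between 7.57 and 8.06 in 5 fetuses and at 11.3 in both others (fetuses 3 and 4), and at day 90 all 8 lay between 7.29 and 7.96. SETD7, a methyltransferase, was low in 2 fetuses (5.59 and 5.82) and above 8.98 in 5, and THOC3 low in 2 (6.71 and 7.37) and between 9.76 and 10.79 in 5. Both genes also ranged widely at day 90, SETD7 from 5.53 to 9.41 and THOC3 from 6.33 to 10.97. The SD of SETD7 was 1.57 at day 90 and 1.94 at day 110, and that of THOC3 was 1.89 and 1.53. The fetuses of day 110 at the high level were not the same ones from gene to gene. SAMD12, COL2A1, G6PC, PON3 and SLC22A16 completed the 10 with the largest SD, between 1.20 and 1.5.

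Fetuses 2 and 3 of day 110 had the lowest values of 3 genes of amino acid and phosphoenolpyruvate metabolism, a pattern picked after the values were seen. For PCK2 they lay at 7.76 and 8.58, and the other 5 fetuses between 9.21 and 11.11. For ARG2 they lay at 10.05 and 10.37, and the others between 11.98 and 12.96. PHGDH, the first enzyme of serine synthesis, was at 11.22 and 10.93 in these fetuses and between 12.58 and 13.34 in the others, and its change of 0.65 did not pass the test (adjusted p = 0.0389), but it was 0.84 (adjusted p = 0.00764) without fetus 2 and 0.89 (adjusted p = 0.00365) without fetus 3. Other genes of the same metabolism differed from this. For ASNS and the transporter chain SLC3A2 fetus 3 was the lowest (6.56 and 10.34) and fetus 2 lay within the range of the others (7.81 and 10.79). For PSAT1 and PSPH, which also act in serine synthesis, and for CTH, both fetuses lay within that range. They were also within the range of the others for FKBP5 and TOP2A. For PGK1, phosphoglycerate kinase 1, fetus 2 lay above the others (15.80 against 15.37 to 15.60). For MYH3 it lay just below them (13.13 against 13.20 to 14.32). Fetus 3 lay within the range of the others for both. The day 90 fetuses on the slides of fetuses 2 and 3 did not lie below the other fetuses of day 90 for PCK2, ARG2 or PHGDH.

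**Figure D5:**
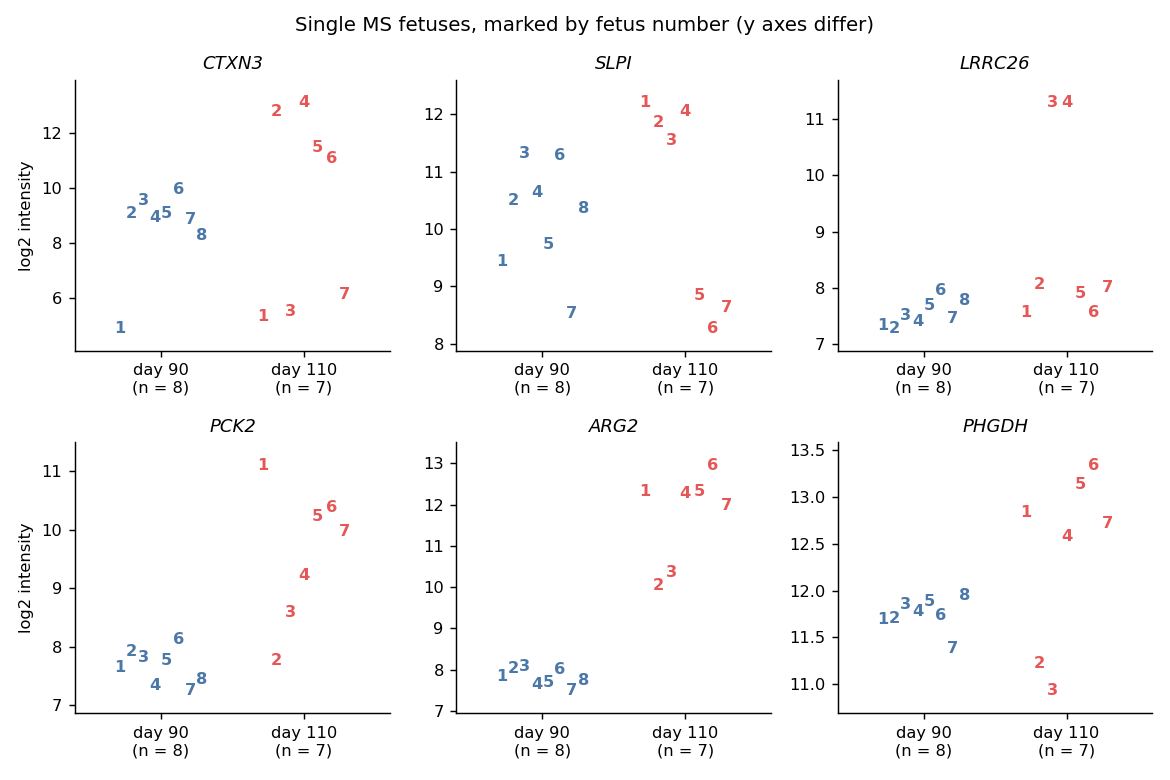
Normalized log2 intensity (y axis) in each MS fetus, with day 90 and day 110 side by side and points labelled by fetus number, for CTXN3, SLPI, LRRC26, PCK2, ARG2 and PHGDH. At day 110 CTXN3, SLPI and LRRC26 lie at 2 separate levels held by different fetuses, and fetuses 2 and 3 are the lowest for PCK2, ARG2 and PHGDH.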

How the data were processed

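Total RNA (200 ng) of longissimus muscle of 61 fetuses in 8 groups of genotype and age was labelled with Cy3 and hybridized to porcine 60-mer oligonucleotide arrays. The authors deposited the scanner output of each array, made by Agilent Feature Extraction 10.10.1.1, which holds spot intensity before and after background correction, and a table of log2 values that they had normalized between arrays. Per the labels, limma was used by the submitters. That table was matched to the spots by row (lowest Spearman correlation 0.999998).

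The background-corrected intensity was taken as log2 and quantile normalized over all arrays. Control spots were left out, outlier spots marked by the scanner were set to missing, and a probe was kept (42436 of 60305) if 80% or more of the arrays in any group held it well above background. One model with the 8 groups was fitted with limma 3.58.1 (R 4.3.3, with the data.table package, version 1.17.8), and calls were made at an adjusted p under 1%. Summaries and plots were made with Python 3.11.15, numpy 2.4.6, pandas 2.3.3 and matplotlib 3.10.9. Each fetus is 1 array, and the number of arrays limits the precision. The p-values and SE rest on the spread between fetuses within groups, pooled over all 8 groups, and not on that of the MS fetuses alone. With the MS arrays alone 24043 probes were called for age. Fetuses of the same sow were treated as independent, since the labels do not give the sow, whereas the study fitted sow as a random effect. The p-values therefore take no account of litter. The fit was tested on simulated data.

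Of the kept probes, 21472 were named (10486 symbols), 7921 by RefSeq accession, 13153 by the gene name in the scanner files, 369 by gene names in a probe list of the study and 29 by the description in the files. Names can be old. The 48 gene lists and the members described were chosen with earlier results of these data known. Genes were named by rule: the 12 largest rises and falls with separate ranges, up to 6 called members of a list and up to 3 against its direction, the 5 largest bounds each way, the 8 largest differences from LW and 5 from the crosses each way, and the 10 largest SDs at day 110. Further members were added to complete families, and PHGDH was added for its values. Part of the genes that the rule picked are not reported here, and the closing section counts those left undescribed. Promoter motifs were not analysed here. The alternatives were the median signal, the deposited values, normexp (offset 50), scaling to the 75th percentile, other filters, marked spots kept, slide as a block, the MS arrays alone, 1 array left out, a change above 1 and the median over the probes of a gene.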

Additional observations from a re-analysis of the deposited data

Results flagged for a closer look

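For each described gene with an age change, the 7 or 8 MS fetuses of an age were searched for a single fetus that lay apart, by the share of the range of the group that its gap to the nearest fetus took up (in brackets). Of 578 groups, 36 (6.23%) held such a fetus, and chance alone gives about 1 in 20. Lying below the other fetuses of day 90 were fetus 2 for MYOG (0.786), fetus 3 for ASB4 (0.673), DNAJB5 (0.617), FOXO3 (0.566) and MYF5 (0.744), fetus 7 for AKR1C1 (0.737), AKR1C4 (0.563), HAPLN1 (0.533), PHGDH (0.553) and RRM2 (0.571) and fetus 8 for MYLPF (0.68). Lying above the other fetuses of day 90 were fetus 2 for CXCL10 (0.537) and PDHA1 (0.786), fetus 3 for SRXN1 (0.528), fetus 4 for C1QTNF3 (0.68), FGL1 (0.546) and TIMELESS (0.741), fetus 7 for PDK4 (0.633) and fetus 8 for COL21A1 (0.558). Lying below the other fetuses of day 110 were fetus 1 for STC1 (0.624) and UHRF1 (0.819), fetus 2 for ESRRA (0.5681), fetus 3 for ASNS (0.579) and HBB (0.687), fetus 5 for ALDOC (0.681), fetus 6 for AURKB (0.633) and fetus 7 for TTN (0.57). Lying above the other fetuses of day 110 were fetus 2 for ATP8 (0.584), PHKB (0.79) and RCAN1 (0.607), fetus 6 for HSPA5 (0.578), KIF2C (0.692), SLC3A2 (0.743) and UNC13A (0.598) and fetus 7 for DMBT1 (0.66) and ESPL1 (0.622). In MYOG, the differentiation factor, fetus 2 of day 90 lay at 11.54 and the next at 12.65, and in PDHA1, the pyruvate dehydrogenase subunit, the same fetus lay at 13.92 and the next at 13.10. Fetus 7 of day 90 lay at 4.29 for AKR1C1 and at 4.34 for AKR1C4, with the next fetuses at 7.84 and 6.40. No fetus stood apart for more than 6 of the genes.

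Some genes were singled out because the change with age differed between MS and another genotype by the test of the difference itself (limma, adjusted p under 1%). Between MS and LW the difference of log2 changes was positive for ARG2 (5.37), PPP1R14C (4.01), PPM1J (3.86), UNC13A (3.11), KRT19 (2.77), PCK2 (2.74), ASNS (2.58) and PHGDH (2.57). It was negative for GSTM1 (-3.62), ZP2 (-3.40), AWN (-3.35), NR4A3 (-3.11), DMBT1 (-2.71), GPR85 (-2.52), RNF182 (-2.48), PEG10 (-2.35) and MYH3 (-2.27). Between MS and the crosses it was positive for DHRS4 (0.58) and negative for GSTM1 (-2.72), COL16A1 (-0.74), COL1A1 (-0.74), INS-IGF2 (-0.65) and SPARC (-0.59).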

How the results depend on the processing

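The counts of probes whose level differed between the ages in MS (24041), and whose change differed from LW (2524), moved by less than 1.5 times under the other signal columns, the deposited values, the normexp correction, the 75th percentile scaling, both other filters, the marked spots kept and slide as a block. Asking for a change above 1 left 9369 probes. With 1 MS array left out in turn the counts were 23074 to 23559 for age and 2034 to 2623 against LW. The count against the crosses (25) was 18 to 38 with 1 MS or MSLW array left out (38 without MS fetus 6 of day 110, as the highest), 58 with slide as a block, and 18 to 30 under the other settings. The labels tie no fetuses across ages, but numbers 1 to 7 are also those of the slides that held both ages. The analysis paired in this way, with slide as a block, gave 25466 probes for age and 3742 against LW. Within slides all 24041 probes kept their direction on average. That average used the arrays that made the calls, apart from fetus 8 of day 90, so that a call could hardly turn by it.

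With the 75th percentile scaling, age changes turned for ACTC1 (0.17), COX2 (0.70), IGF2 (0.27), MYBPC1 (0.63), MYLPF (0.57) and THRA (0.0645), and the median of the cytosolic ribosomal proteins turned to 0.34. Of 39 gene lists other than markers, 26 had a median above 0, 26 over the median of all probes of a gene and 27 with that scaling. Over the results for described genes under all alternatives, 7510 values stayed on the same side of the threshold with the same direction, 54 no longer passed, 22 newly passed and 6 turned. The naming rule picked 93 further genes with an age change that are not described. Of these, 16 no longer passed or turned under at least 1 alternative, among them SLC37A4, CTSB and RPS23, which turned with the 75th percentile scaling, and SLC1A4, COX7A2L, TNN and ADIPOQ were left undescribed for that reason. The cause of these shifts beyond the scaling was not tested. Probes near the background give bounds, and the brightest probes lie near the top of the scale, so that small changes there depend on the scaling.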
